A study of Mus musculus with 10 samples.

Results

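The 10 transcripts described here are copied from mitochondrial DNA (mtDNA): the ribosomal RNAs mt-Rnr1 and mt-Rnr2, the complex I subunits mt-Nd1, mt-Nd2, mt-Nd4 and mt-Nd5, the complex III subunit mt-Cytb, and the complex IV subunits mt-Co1, mt-Co2 and mt-Co3. They were chosen by gene name, with earlier results of these data known. They are 10 of the 20270 genes in the deposited table and 10 of its 23 mtDNA genes, of 37 in the mouse annotation. All 10 passed the filter on low values, a log2 value above 0 in at least 2 libraries.

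The table holds RNA sequencing of 10 libraries of hematopoietic stem cells (HSCs), sorted from bone marrow of C57BL/6 mice that had been transplanted with lineage-negative bone marrow cells of genotype Id1-/- or Id1+/+. Id1 encodes an inhibitor of helix-loop-helix transcription factors. The groups are stressed Id1-/- cells (2 libraries), stressed Id1+/+ cells (2 libraries), normal Id1-/- cells (3 libraries) and normal Id1+/+ cells (3 libraries). The sample labels give 4 weeks after transplantation for every library, and the series text gives 6 weeks. The labels do not define "stressed" or "normal", do not name a marker that separated donor from host cells, and do not say whether the libraries of a group came from separate mice. The p-values therefore measure only the spread between these libraries, which may be technical.

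Id1 itself went against its labels. Its log2 CPM (counts relative to the reads of the library) was 3.18 and 3.08 in stressed libraries labelled KO and 0.36 and 2.13 in stressed libraries labelled WT. In normal libraries it was 3.72, 3.40 and 3.27 in those labelled KO and 0.43, 0.78 and 1.66 in those labelled WT. Every KO-labelled library was above every WT-labelled one, by a difference of 2.50 in normal cells (SE 0.45, limma adjusted p = 0.018) and 1.88 in stressed cells (SE 0.55, adjusted p = 0.33). The sources used here do not say which part of the gene the allele removes, so the groups are called KO-labelled and WT-labelled below. The estimated depth was 25700000 to 33000000 reads per library. All 12 HSC markers examined, among them Kit, Hlf and Procr, were present in every library, with summed levels of 4069 to 4169 CPM in KO-labelled stressed, 4423 to 4490 CPM in WT-labelled stressed, 4623 to 4924 CPM in KO-labelled normal and 5319 to 5649 CPM in WT-labelled normal libraries.

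Mitochondrial DNA is a small circular genome in the mitochondrial matrix, transcribed from both strands by its own RNA polymerase, Polrmt, with the factors Tfam and Tfb2m. The long primary transcripts are cut, mostly at the tRNAs that punctuate the genes, into ribosomal RNAs and messengers whose later abundance depends on their own stability. The proteins it encodes are all subunits of the respiratory chain and ATP synthase, assembled with subunits encoded in the nucleus. Long-term HSCs are known for relying little on respiration while quiescent and for using it more as they divide and differentiate.

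Part of the mtDNA has near-identical copies in nuclear chromosomes, and these decide how a short read can be assigned. In the mm10 build, 7 annotated nuclear genes at chr1:24611535-24616197, on the minus strand, repeat the stretch from mt-Co1 to mt-Nd4, and 3 genes at chr2:22587291-22590533 repeat mt-Nd2, mt-Co1 and mt-Co2. The copy Gm28661 matched mt-Co2 over 681 bases, Gm28437 matched mt-Co3 over 783 bases and Gm28439 matched mt-Nd4 over 876 bases, each at 100% identity. Gm29216 matched mt-Co1 over 483 bases with 1 mismatch. The sequences below, from the GENCODE vM21 transcripts of mm10, show how close mt-Co2 and part of mt-Co1 are to their copies. A short read that covers no differing base cannot be separated from the copy. The first set is bases 1063 to 1162 of mt-Co1 (chrM:5328-6872, plus strand) with the matching stretches of Gm29216 (chr1:24615706-24616197, minus strand) and Gm13340 (chr2:22588103-22589647, minus strand), with capitals in mt-Co1 at each base where a copy differs from it, and in a copy at each base where that copy differs from mt-Co1.
mt-Co1: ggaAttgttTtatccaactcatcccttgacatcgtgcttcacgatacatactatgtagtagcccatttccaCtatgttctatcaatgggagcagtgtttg
Gm29216: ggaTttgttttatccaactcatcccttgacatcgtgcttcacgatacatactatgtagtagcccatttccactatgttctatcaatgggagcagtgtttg
Gm13340: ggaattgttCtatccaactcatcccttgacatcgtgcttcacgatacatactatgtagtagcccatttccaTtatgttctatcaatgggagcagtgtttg
The second set is bases 1 to 100 of mt-Co2 (chrM:7013-7696, plus strand) with Gm28661 (chr1:24614885-24615565, minus strand) and Gm13341 (chr2:22587291-22587962, minus strand), with capitals marking differences from mt-Co2 in the same way.
mt-Co2: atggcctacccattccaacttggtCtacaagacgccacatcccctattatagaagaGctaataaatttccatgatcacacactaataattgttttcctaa
Gm28661: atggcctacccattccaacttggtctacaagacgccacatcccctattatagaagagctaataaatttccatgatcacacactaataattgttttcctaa
Gm13341: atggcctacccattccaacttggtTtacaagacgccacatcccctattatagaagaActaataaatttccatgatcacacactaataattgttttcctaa
Over the mt-Co1 stretch Gm29216 differed at 1 base and Gm13340 at 2. Over the mt-Co2 stretch Gm28661 differed at 0 bases and Gm13341 at 2.

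The members differed in how much of them is repeated. Of all 50-base windows of mt-Co2, 100% also occur in another annotated transcript, against 99.9% for mt-Co3, 62.2% for mt-Nd4 and 51.1% for mt-Co1. The share was 8.2% for mt-Nd2, 7.6% for mt-Nd5, 1.0% for mt-Rnr2 and 0% for mt-Rnr1, mt-Nd1 and mt-Cytb. Levels per kilobase of gene were lowest for mt-Co2 and mt-Co3. The mean over the 10 libraries was 11.23 log2 CPM per kb for mt-Rnr2, 10.89 for mt-Cytb, 10.31 for mt-Co1, 9.97 for mt-Rnr1, 9.60 for mt-Nd1 and 8.71 for mt-Nd5. It was 7.93 for mt-Nd4 and 7.91 for mt-Nd2, then 6.38 for mt-Co3 and 3.38 for mt-Co2. Among genes outside the 10, mt-Atp6 at 3.11, mt-Nd4l at 1.42 and mt-Nd3 at -0.64 log2 CPM per kb also had at least 98.0% of their windows shared. The ATP synthase subunit mt-Atp8 (chrM:7766-7969) was at 1.69 with no annotated copy. It lies between mt-Co2 and mt-Co3, inside the stretch that the chromosome 1 copies repeat, and the place of its copy there, between Gm10925 and Gm28661, holds no annotated gene. Sequence outside annotated transcripts was not searched, so its share of 0% does not show that mt-Atp8 is unrepeated. How the authors' counting treated reads with several matches is not given in the sources used here, so levels of mt-Co2 and mt-Co3, and their place below the other complex IV subunit, are uncertain. Their copies' values are given below.

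**Figure D1:**
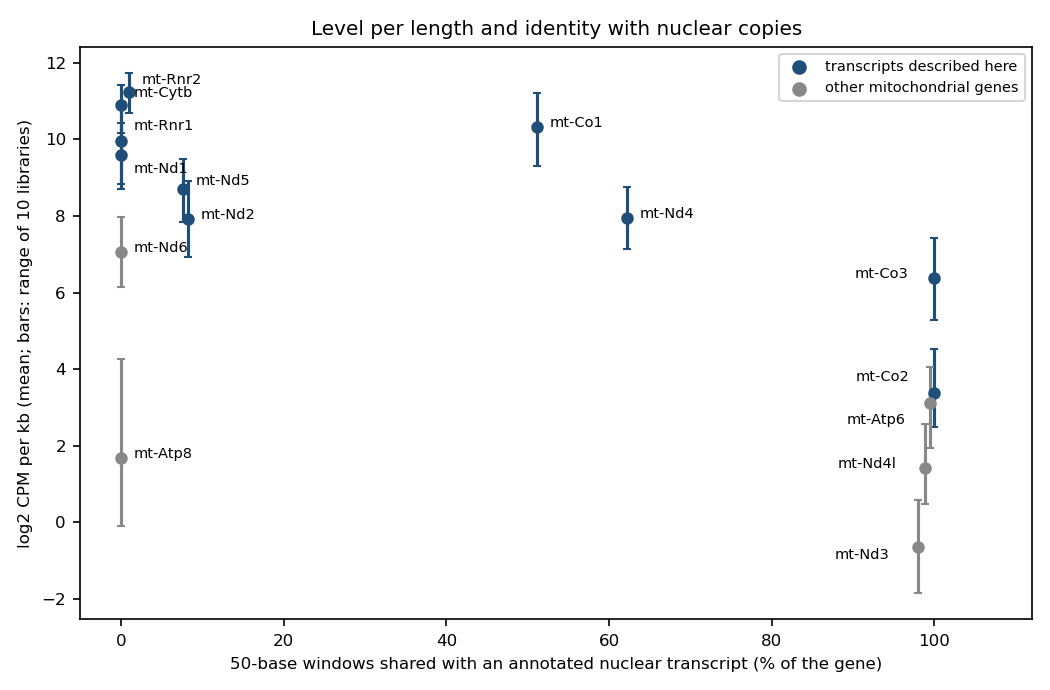
The vertical axis gives the level per kb of gene (log2 CPM per kb, mean over 10 libraries, bars from the lowest to the highest library) and the horizontal axis the share of each gene's 50-base windows that also occur in another annotated transcript. The 5 genes with at least 98.0% of windows shared lie at 6.38 or below, and mt-Atp8 lies at 1.69 with 0% in annotated transcripts, which leave out the place of its copy on chromosome 1.

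Within a library the order of the members per kilobase was nearly fixed. In all 4 groups it ran mt-Rnr2, mt-Cytb, mt-Co1, mt-Rnr1, mt-Nd1, mt-Nd5, then mt-Nd2 and mt-Nd4 in either order, then mt-Co3 and mt-Co2. Neighbours whose libraries overlapped were mt-Nd2 and mt-Nd4 in both normal groups and mt-Rnr2 and mt-Cytb in WT-labelled normal libraries. The members also varied together: the Pearson correlation of each with the mean of the other 9 over the 10 libraries ranged between 0.906 for mt-Co2 and 0.996 for mt-Nd1. This is a description of libraries that fall into 4 groups and share their normalization.

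Together the 10 transcripts made up 0.739% and 0.746% of the summed CPM in KO-labelled stressed libraries and 0.660% and 0.673% in WT-labelled stressed libraries. They made up 1.67%, 1.70% and 1.78% in KO-labelled normal libraries and 1.26%, 1.42% and 1.37% in WT-labelled normal libraries. Each stressed library was below each normal one, and each KO-labelled library was above each WT-labelled one of the same condition. In such bulk samples fewer cells of a type and less RNA per cell cannot be told apart.

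The ribosomal RNAs of the mitochondrial ribosome come first along the genome. The small-subunit RNA mt-Rnr1 (chrM:70-1024) had log2 CPM of 9.14 and 9.19 in KO-labelled stressed, 8.76 and 8.94 in WT-labelled stressed, 10.61, 10.90 and 10.81 in KO-labelled normal, and 10.002, 10.40 and 10.26 in WT-labelled normal libraries. The large-subunit RNA mt-Rnr2 (chrM:1094-2675) read 11.60 in KO-labelled stressed libraries A and B alike and 11.35 in their WT-labelled counterparts. In normal libraries mt-Rnr2 read 12.39, 12.13 and 12.39 in the KO-labelled and 11.85, 12.13 and 12.13 in the WT-labelled group. Both RNAs were lower in stressed than in normal libraries with no overlap. The KO-labelled normal libraries lay above the WT-labelled ones for mt-Rnr1 and overlapped them for mt-Rnr2. In stressed relative to normal cells, mt-Rnr1 fell by 1.61 in KO-labelled (SE 0.11, limma adjusted p = 1.3e-05) and by 1.37 in WT-labelled libraries (SE 0.11, adjusted p = 6.4e-05). The fall of mt-Rnr2 was smaller, 0.70 in KO-labelled (SE 0.087, limma adjusted p = 0.00099) and 0.69 in WT-labelled libraries (SE 0.087, adjusted p = 0.0017).

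The equal values of mt-Rnr2 come from quantile normalization, which gives the gene at a given rank the same value in every library. Of the 300 highest ranks, 258 held an equal value in all 10 libraries (tolerance 1e-09 on the log2 scale). The steps are wide at the top, 0.26 between ranks 1 and 2, 0.28 between ranks 2 and 3, and 0.24 between ranks 3 and 4. mt-Rnr2 was at rank 4 in both KO-labelled stressed and rank 6 in both WT-labelled stressed libraries. It was at ranks 1, 2 and 1 in KO-labelled normal and 3, 2 and 2 in WT-labelled normal libraries. At rank 1 no higher value exists, so a difference above that level cannot be seen. For mt-Rnr2, mt-Cytb and mt-Co1 the spread within a group is a spread of ranks, and a spread of 0 there is not a measured precision, so their SEs may be too small.

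**Figure D2:**
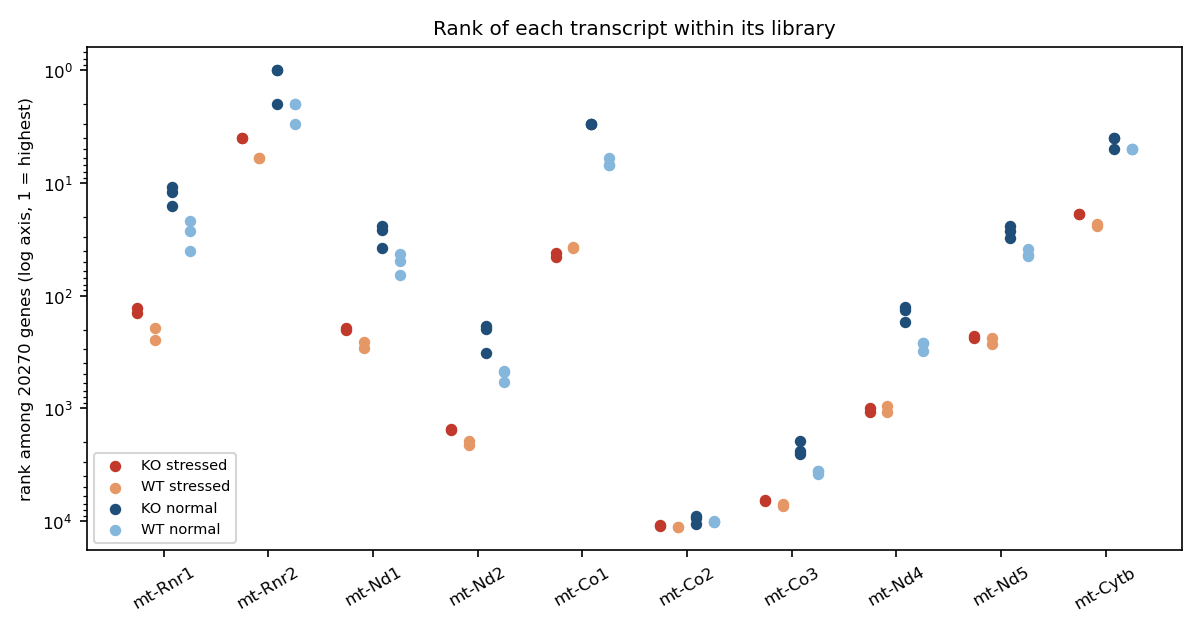
The rank of each transcript within its library (log axis, rank 1 is the highest of 20270 genes) is drawn for each of the 10 libraries, coloured by group. mt-Rnr2, mt-Cytb and mt-Co1 sit at ranks 1 to 7 in normal libraries, where equal ranks give equal values, while mt-Co3 and mt-Co2 lie far below.

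Complex I, which takes electrons from NADH, has its membrane core encoded by mtDNA. mt-Nd1 (chrM:2751-3707), with no annotated nuclear copy, had log2 CPM of 8.89 and 8.93 in KO-labelled stressed, 8.64 and 8.73 in WT-labelled stressed, 10.04, 10.36 and 10.30 in KO-labelled normal, and 9.68, 9.96 and 9.87 in WT-labelled normal libraries. mt-Nd2 (chrM:3914-4951) had 7.30 in each KO-labelled stressed library, 6.99 and 7.07 in WT-labelled stressed, 8.55, 8.96 and 8.92 in KO-labelled normal, and 8.08, 8.26 and 8.24 in WT-labelled normal libraries. For both genes the 4 groups were separate, in the order KO-labelled normal, WT-labelled normal, KO-labelled stressed and WT-labelled stressed. mt-Nd4 (chrM:10167-11544) had 7.60 and 7.66 in KO-labelled stressed, 7.59 and 7.69 in WT-labelled stressed, 9.02, 9.18 and 9.21 in KO-labelled normal, and 8.71, 8.72 and 8.58 in WT-labelled normal libraries. mt-Nd5 (chrM:11742-13565) had 8.81 and 8.78 in KO-labelled stressed, 8.70 and 8.78 in WT-labelled stressed, 10.18, 10.26 and 10.36 in KO-labelled normal, and 9.93, 10.01 and 9.95 in WT-labelled normal libraries. For mt-Nd4 and mt-Nd5 the stressed libraries of both labels overlapped and lay far below both normal groups.

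All 4 complex I messengers fell in stressed relative to normal cells under both labels. In KO-labelled libraries the stressed-minus-normal differences were -1.32 for mt-Nd1 (SE 0.094), -1.51 for mt-Nd2 (SE 0.11), -1.51 for mt-Nd4 (SE 0.072) and -1.47 for mt-Nd5 (SE 0.053), with limma adjusted p of 2.1e-05 or less. In WT-labelled libraries they were -1.15 for mt-Nd1 (SE 0.094), -1.16 for mt-Nd2 (SE 0.11), -1.03 for mt-Nd4 (SE 0.072) and -1.22 for mt-Nd5 (SE 0.053), with limma adjusted p of 0.00025 or less.

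mt-Cytb, the mtDNA-encoded subunit of complex III (chrM:14145-15288), stood at 10.47 log2 CPM in each KO-labelled stressed library and at 10.36 and 10.38 in WT-labelled stressed libraries. It stood at 11.48, 11.60 and 11.60 in KO-labelled normal libraries and at 11.48 in all 3 WT-labelled normal libraries. Its ranks were 19 in both KO-labelled stressed, 24 and 23 in WT-labelled stressed, 5, 4 and 4 in KO-labelled normal and 5 in all WT-labelled normal libraries. It fell by 1.09 in KO-labelled (SE 0.036, limma adjusted p = 3.2e-08) and by 1.10 in WT-labelled libraries (SE 0.036, adjusted p = 2.8e-08).

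Complex IV reduces oxygen, and mtDNA encodes its catalytic core. mt-Co1 had 9.92 and 9.97 log2 CPM in KO-labelled stressed, 10.05 and 10.04 in WT-labelled stressed, 11.85 in all 3 KO-labelled normal libraries, and 11.25, 11.35 and 11.25 in WT-labelled normal libraries. Its ranks were 46 and 42 in KO-labelled stressed, 37 and 38 in WT-labelled stressed, 3 in every KO-labelled normal library and 7, 6 and 7 in WT-labelled normal libraries. So the mt-Co1 values of KO-labelled libraries were above those of WT-labelled ones among normal cells and below them among stressed cells, with no overlap in either. It fell by 1.90 in KO-labelled (SE 0.033, limma adjusted p = 4.4e-11), which is 3.74-fold, and by 1.25 in WT-labelled libraries (SE 0.033, adjusted p = 4.9e-09). Against mt-Cytb in the same library, mt-Co1 was lower by 0.55 and 0.50 in KO-labelled stressed, lower by 0.31 and 0.35 in WT-labelled stressed, higher by 0.37, 0.24 and 0.24 in KO-labelled normal and lower by 0.22, 0.12 and 0.22 in WT-labelled normal libraries.

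mt-Co3 (chrM:8607-9390) had 5.25 and 5.30 log2 CPM in KO-labelled stressed, 5.09 and 4.94 in WT-labelled stressed, 6.79, 6.85 and 7.08 in KO-labelled normal, and 6.38, 6.37 and 6.28 in WT-labelled normal libraries. mt-Co2 had 2.12 and 2.33 in KO-labelled stressed, 2.03 and 1.94 in WT-labelled stressed, 2.64, 3.82 and 3.98 in KO-labelled normal, and 3.09, 3.29 and 3.07 in WT-labelled normal libraries. Both were lower in every stressed than in every normal library, and the low KO-labelled normal library A made mt-Co2 the most variable member. mt-Co3 fell by 1.63 in KO-labelled (SE 0.11, limma adjusted p = 1.9e-05) and by 1.33 in WT-labelled libraries (SE 0.11, adjusted p = 0.00012). mt-Co2 did not pass, with -1.26 in KO-labelled (SE 0.36, limma adjusted p = 0.082) and -1.17 in WT-labelled libraries (SE 0.36, adjusted p = 0.12). Without KO-labelled normal library A, whose spread enters both tests, the limma adjusted p of mt-Co2 was 0.0055 in KO-labelled and 0.021 in WT-labelled libraries.

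**Figure D3:**
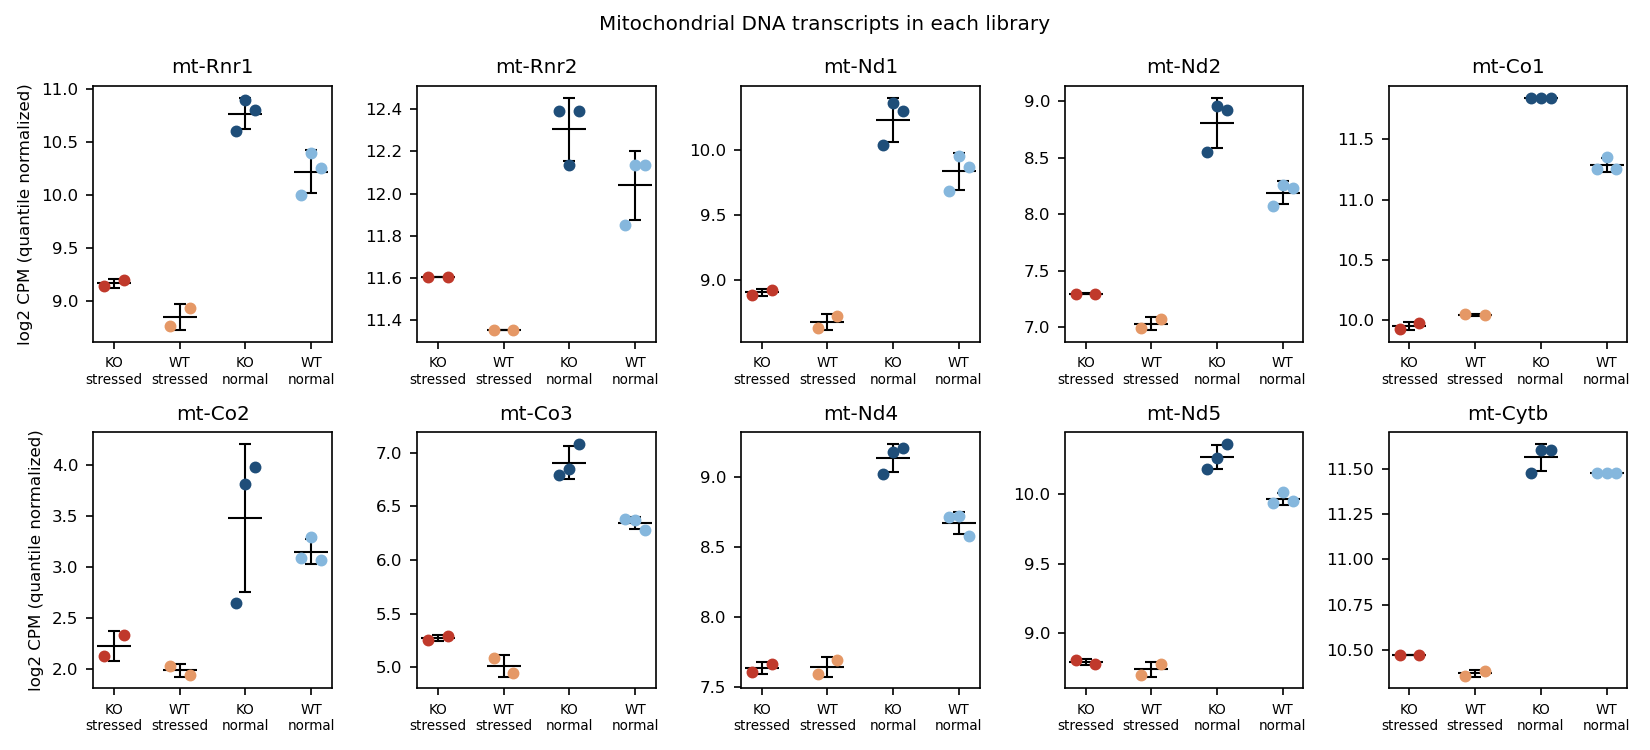
Each panel shows 1 transcript, with log2 CPM on the vertical axis (scales differ between panels), 1 point per library, and the group mean with its SD in black. Every stressed library lies below every normal library in all 10 panels, and mt-Co1 shows 11.85 in all 3 KO-labelled normal libraries.

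All 10 members had a negative stressed-minus-normal difference under both labels. In KO-labelled libraries 9 of 10 were called lower, where 4.5% of the 15143 genes tested were called in either direction and 2.28% lower. The median difference of the 10 was -1.49, against 0.0004 over all genes tested. In WT-labelled libraries 9 of 10 were called lower, where 3.3% of genes were called and 1.75% lower. The median there was -1.16, against 0.0071 over all genes. The groups did not overlap for 10 of 10 members in both comparisons, against 33.1% of genes in KO-labelled and 36.4% in WT-labelled libraries. These counts of 9 were unchanged or became 10 under every alternative tried.

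A nuclear sequence related to ribosomal RNA and markers of other cells also differed between stressed and normal libraries. Rn18s-rs5, an 18S ribosomal RNA related sequence, had log2 CPM of 10.36 and 10.42 in KO-labelled stressed, 10.68 and 10.50 in WT-labelled stressed, 11.25, 11.25 and 11.35 in KO-labelled normal, and 11.02, 11.08 and 11.02 in WT-labelled normal libraries. Every stressed library was below every normal one. Rn18s-rs5 fell by 0.90 in KO-labelled (SE 0.050, limma adjusted p = 2.4e-06) and by 0.45 in WT-labelled libraries (SE 0.050, adjusted p = 0.00066). Rn7sk, the other gene tested in the same companion list, was not called. Its differences were -0.97 in KO-labelled (SE 0.56) and -0.0045 in WT-labelled libraries (SE 0.56). Summed megakaryocyte markers were 1045 to 1060 CPM in KO-labelled stressed, 991 to 996 CPM in WT-labelled stressed, 564 to 610 CPM in KO-labelled normal and 612 to 657 CPM in WT-labelled normal libraries, with 3 of 3 markers present. Summed erythroid markers, 6 of 6 present, were 145 to 162 CPM, 103 to 115 CPM, 201 to 209 CPM and 184 to 217 CPM in the same order of groups. Megakaryocyte sums were thus higher and erythroid sums lower in stressed libraries of both labels. Car1, the highest of the 6 erythroid markers, was called lower under both labels, at -0.79 in KO-labelled and -1.23 in WT-labelled libraries. Hba-a1 was also called lower in WT-labelled libraries, at -2.30. Epor ran the other way in KO-labelled libraries, at 0.49 (limma adjusted p = 0.17). Of the 12 HSC markers, 5 were called lower in stressed KO-labelled libraries (median of the 12 -0.35), where 2.28% of genes tested were. In stressed WT-labelled libraries 5 were called lower, where 1.75% of genes were, and Cd34 was called higher (median -0.24). Summed B and plasma cell markers, 5 of 5 in the table, were 162 to 171 CPM in KO-labelled stressed against 5.69 to 9.08 CPM in KO-labelled normal libraries, and 1.56 to 3.49 CPM in WT-labelled stressed against 6.13 to 9.61 CPM in WT-labelled normal libraries. The part of ribosomal RNA content and of cell makeup in the fall of the mtDNA transcripts was not tested.

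Among normal cells, 7 of 10 members were called higher under the KO than under the WT label, where 1.56% of genes were called and 1.23% higher. They were mt-Nd2 at 0.62 (SE 0.098, limma adjusted p = 0.0073), mt-Co3 at 0.56 (SE 0.10, adjusted p = 0.018), mt-Co1 at 0.56 (SE 0.029, adjusted p = 9.2e-06) and mt-Rnr1 at 0.55 (SE 0.097, adjusted p = 0.015). The others were mt-Nd4 at 0.47 (SE 0.064, limma adjusted p = 0.0034), mt-Nd1 at 0.39 (SE 0.084, adjusted p = 0.041) and mt-Nd5 at 0.30 (SE 0.047, adjusted p = 0.0070). The 3 that did not pass were mt-Co2 at 0.33 (limma adjusted p = 0.71), mt-Rnr2 at 0.27 (adjusted p = 0.14) and mt-Cytb at 0.085 (adjusted p = 0.26). Single libraries moved these 3: mt-Rnr2 was called without KO-labelled normal library B, at 0.35 (limma adjusted p = 0.034), and mt-Cytb without KO-labelled normal library A, at 0.13 (adjusted p = 0.013). Over all libraries left out in turn, mt-Rnr2 ranged between 0.17 and 0.35, and mt-Co2 between 0.080 without KO-labelled normal library C and 0.75 without KO-labelled normal library A, with no call of mt-Co2. mt-Rnr2 and mt-Cytb are the members whose libraries shared ranks across these groups. The median difference was 0.43, or 1.35-fold, against -0.0083 over all genes. Groups did not overlap for 7 of 10, against 19.5% of genes. This comparison shares its normal libraries with the stress comparisons above.

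The calls among normal cells depended on the fit. Without a trend in the variance the differences were the same, but their SEs and tests changed and only mt-Co1 of the 10 was called. With the dependence of differences on gene length removed, mt-Co1 was again the 1 member called, and here the differences themselves were smaller for all 10. They were then 0.44 for mt-Co1, 0.37 for mt-Co3, 0.22 for mt-Nd1, 0.20 for mt-Nd5, 0.15 for mt-Rnr2 and -0.070 for mt-Cytb. With the 2 normal groups fitted alone, 4 were called, and 4 were also called without KO-labelled normal library C or without WT-labelled normal library C. mt-Nd1, nearest to the threshold, lost its call in 13 of 22 alternatives, and mt-Co1 kept its call in all 22. Rn18s-rs5 was also higher in KO-labelled normal libraries, by 0.25 (SE 0.045, limma adjusted p = 0.018). Rn7sk was not called there, at 0.80 (SE 0.50, limma adjusted p = 0.53). Summed granulocyte and monocyte markers, 7 of 8 in the table, were 32.8 to 36.9 CPM in KO-labelled normal and 8.39 to 15.1 CPM in WT-labelled normal libraries. Of these 7, Mpo, the granule enzyme myeloperoxidase, was the 1 called, at 2.28 (SE 0.37, limma adjusted p = 0.0091). The median difference of the 7 was 1.57, and 4 had an unadjusted limma p under 0.05. Csf1r ran the other way, at -2.28 with overlapping groups, and Itgam differed by only 0.044. The HSC marker Kit was lower in KO-labelled normal libraries, with a log2 difference of -0.31 (SE 0.047, limma adjusted p = 0.0050). The part of these in the result was not tested.

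Among stressed cells 0 of 10 members were called by limma between the labels, where 0.145% of genes were called, while 6 of 10 had an unadjusted p under 0.05. The limma adjusted p ran between 0.47 and 0.99. The differences were 0.32 for mt-Rnr1 (SE 0.12), 0.26 for mt-Nd2 (SE 0.12), 0.26 for mt-Co3 (SE 0.13), 0.25 for mt-Rnr2 (SE 0.096), 0.24 for mt-Co2 (SE 0.40) and 0.23 for mt-Nd1 (SE 0.10). They were 0.098 for mt-Cytb (SE 0.039), 0.054 for mt-Nd5 (SE 0.058), -0.0077 for mt-Nd4 (SE 0.079) and -0.095 for mt-Co1 (SE 0.036). The median was 0.23, against 0 over all genes. Groups did not overlap for 8 of 10, against 39.1% of genes. Summed B and plasma cell markers were 162 to 171 CPM in KO-labelled stressed libraries and 1.56 to 3.49 CPM in WT-labelled stressed libraries, with Igkc and Jchain, immunoglobulin genes of plasma cells, called higher. Summed granulocyte and monocyte markers were 31.7 to 38.4 CPM in KO-labelled stressed and 9.95 to 17.5 CPM in WT-labelled stressed libraries. Mpo carried most of the KO-labelled sum, with means of 4.61 log2 CPM in KO-labelled and 2.03 in WT-labelled stressed libraries, and differences of S100a8 (-0.19), S100a9 (-1.15) and Csf1r (-3.90) ran the other way. None of the 7 markers was called by limma there, with 3 at an unadjusted p under 0.05. The part of these cells in the mtDNA values was not tested.

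**Figure D4:**
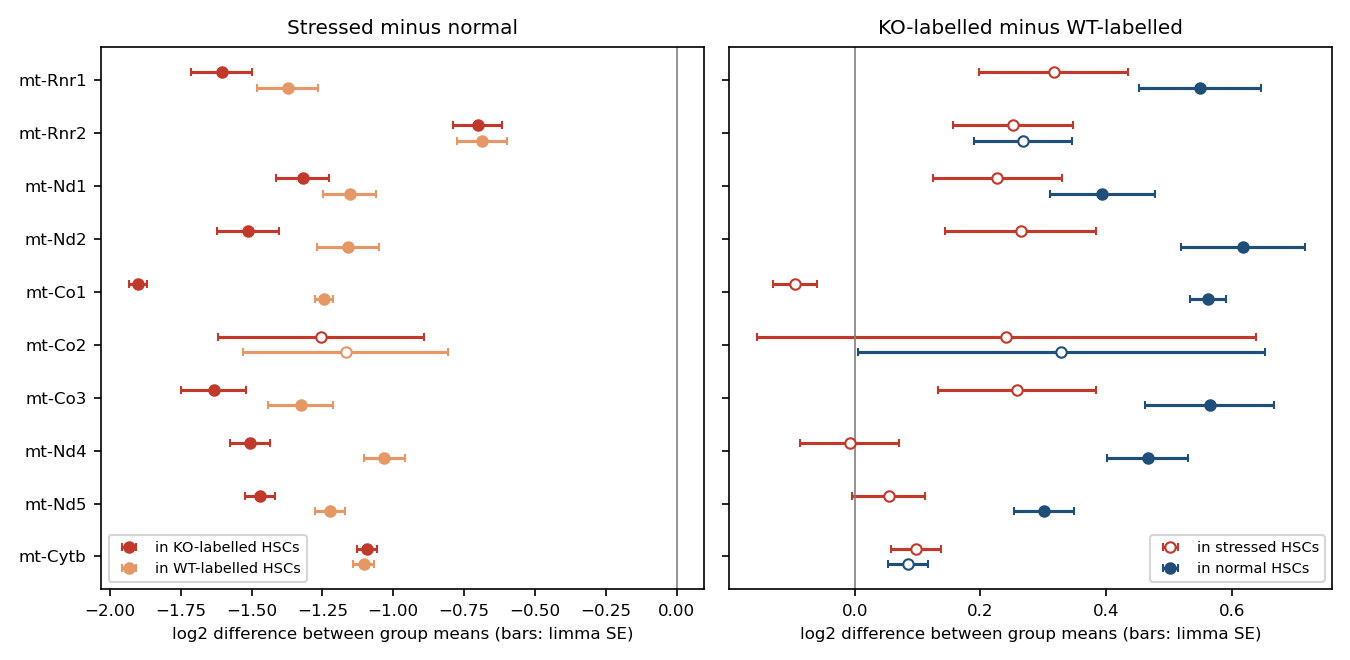
Points give the log2 difference between group means for each transcript, with the limma SE as bars; filled points passed an adjusted p of 0.05 and open points did not. On the left all stressed-minus-normal differences lie below 0, and on the right mt-Co1 is at 0.56 in normal and at -0.095 in stressed cells.

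The stress difference itself was compared between genotypes by an interaction term. It was called for mt-Co1 alone among the 10, at -0.66 (SE 0.046, limma adjusted p = 0.00024), where 3 of 15143 genes, 0.0198%, were called and 0.0066% lower. The fall of mt-Co1 was thus larger under the KO than under the WT label. The test pools the spread over all 4 groups. The 3 equal values at rank 3 enter that pool as a spread of 0, which may make the SE too small. Without a trend in the variance the SE of this term was 0.10 and the limma adjusted p 0.13. The next members were mt-Nd4 at -0.47 (SE 0.10, limma adjusted p = 0.19), mt-Nd2 at -0.35 (SE 0.15, adjusted p = 0.53) and mt-Co3 at -0.31 (SE 0.16, adjusted p = 0.59). The term was negative for 9 of 10 members and 0.013 for mt-Cytb, and its median was -0.24 against -0.0040 over all genes.

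Other mtDNA genes were read in the same libraries. Of 13 outside the list, 5 passed the filter on low values, so 15 of 23 mtDNA genes were tested. mt-Nd6, the complex I subunit whose messenger is read from the opposite strand to all 10 members, had log2 CPM of 5.51 and 5.39 in KO-labelled stressed, 5.22 and 5.20 in WT-labelled stressed, 6.70, 7.02 and 7.04 in KO-labelled normal, and 6.27, 6.56 and 6.33 in WT-labelled normal libraries. Its groups had the same order as those of mt-Nd1 and mt-Nd2, with no overlap between stressed and normal. It fell by 1.47 in KO-labelled (SE 0.13, limma adjusted p = 0.00014) and by 1.18 in WT-labelled libraries (SE 0.13, adjusted p = 0.00073), and its difference among normal cells was 0.53 (SE 0.12, adjusted p = 0.054). Whether counting used the strand is not stated, and mt-Nd6 overlaps the end of mt-Nd5 on the other strand. The ATP synthase subunit mt-Atp6 fell by 1.41 in WT-labelled libraries (SE 0.32, limma adjusted p = 0.037) and read -0.97 in KO-labelled ones (SE 0.32, adjusted p = 0.13).

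mt-Atp8, which shares its messenger with mt-Atp6, was highest in other libraries than the 10 members. It had 1.97 and 1.51 log2 CPM in KO-labelled stressed, -1.39 and -2.39 in WT-labelled stressed, -1.63, -0.27 and -0.61 in KO-labelled normal, and -1.26, -0.56 and -1.39 in WT-labelled normal libraries. Both KO-labelled stressed libraries were above the other 8, but no comparison passed: the difference between labels among stressed cells was 3.63 (SE 0.86, limma adjusted p = 0.23). Of the 22 mitochondrial tRNA genes 8 were in the table and 1, mt-Tn, was tested, with no call.

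Of 15 annotated copies found, 14 were in the table and 10 were tested. All 10 of these had a negative stressed-minus-normal difference under both labels. In KO-labelled libraries 4 were called lower (median of the 10 -1.35), where 2.28% of genes tested were. In WT-labelled libraries 2 were called lower (median -1.08), where 1.75% of genes were. Gm29216, the mt-Co1 copy shown above, had log2 CPM of 4.07 and 4.21 in KO-labelled stressed, 4.25 and 4.38 in WT-labelled stressed, 6.01, 6.12 and 6.18 in KO-labelled normal, and 5.43, 5.46 and 5.28 in WT-labelled normal libraries. Like mt-Co1 it was called higher among KO-labelled normal libraries (0.71, SE 0.12, limma adjusted p = 0.0095), and its difference among stressed ones was -0.17 (SE 0.14, adjusted p = 0.79). Its interaction term was -0.88 (SE 0.19, limma adjusted p = 0.19). Gm28661, the mt-Co2 copy, had 2.66 and 2.77 in KO-labelled stressed, 2.11 and 2.16 in WT-labelled stressed, 2.74, 3.96 and 4.03 in KO-labelled normal, and 3.16, 3.43 and 3.16 in WT-labelled normal libraries. It repeated the low value of mt-Co2 in KO-labelled normal library A.

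The copies took 63.2 to 67.3% of the summed CPM of mt-Co2 and its copies, 15.2 to 28.0% for mt-Co3, 2.03 to 2.77% for mt-Co1, 0.419 to 0.585% for mt-Nd4 and 0.211 to 0.458% for mt-Nd2. Whether these reads came from nuclear or mitochondrial RNA cannot be told apart where the sequences are equal. Summing each member with its copies left the number of members called unchanged in all 5 comparisons.

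**Figure D5:**
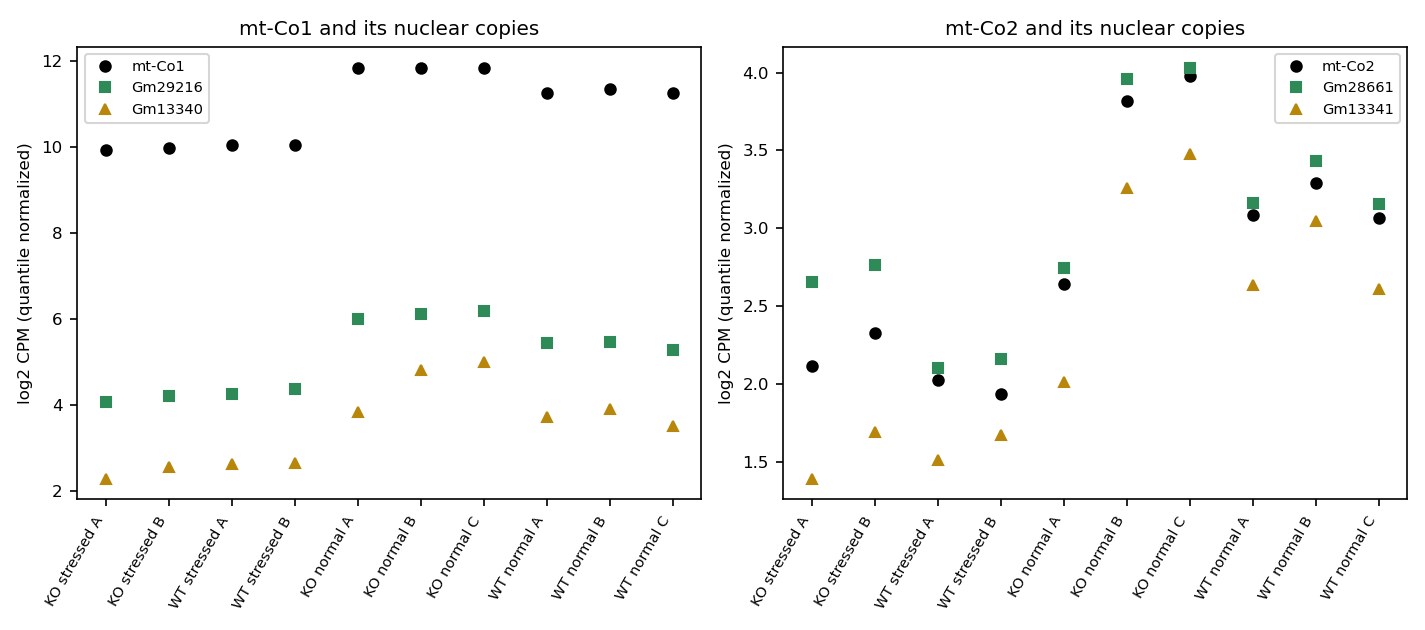
Log2 CPM of mt-Co1 (left) and mt-Co2 (right) is plotted with that of nuclear copies in each of the 10 libraries. mt-Co1 lies several log2 units above Gm29216, while mt-Co2 lies below Gm28661 in every library and shares its low value in KO-labelled normal library A.

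Few of the nuclear genes that serve mtDNA expression were called, in comparisons where 0.0198% to 4.5% of all genes tested were called. For lists this short, such counts are near those shares. Of 18 genes for mtDNA transcription and the nucleoid, 0 were called by limma in each of the 5 comparisons, with 1 to 4 at an unadjusted p under 0.05; their median was 0.0013 for stressed minus normal in KO-labelled and 0.14 in WT-labelled libraries. Polrmt, the mitochondrial RNA polymerase, averaged 6.23 log2 CPM in KO-labelled stressed, 6.39 in WT-labelled stressed, 6.17 in KO-labelled normal and 6.28 in WT-labelled normal libraries. Tfam, which packages mtDNA and activates its promoters, averaged 6.56, 6.49, 6.56 and 6.34 in the same groups. Tfb2m, the promoter-melting factor, averaged 5.25, 5.28, 5.36 and 5.09, and Ssbp1, which binds single-stranded mtDNA, averaged 7.02, 7.12, 7.16 and 6.99. None of these 4 passed the limma test in any comparison. Of 26 tested genes for mitochondrial RNA processing and stability, only the tRNA-modifying enzyme Cdk5rap1 was called in any comparison. It was lower in KO-labelled stressed than in WT-labelled stressed libraries at -1.54 (SE 0.22, limma adjusted p = 0.029), where 0.0594% of all genes were called lower. Its difference between the labels among normal cells was -0.71 (SE 0.18, limma adjusted p = 0.093). The cause of the Cdk5rap1 difference was not tested. Lrpprc, which stabilizes mitochondrial messengers, averaged 7.31, 7.19, 7.22 and 7.24 in the same order of groups and was not called.

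No nuclear subunit of the same respiratory complexes was called lower in stressed cells. Of all genes tested, 2.28% were called lower in stressed KO-labelled and 1.75% in stressed WT-labelled libraries. For lists this short, 0 calls lower is near those shares. Of 36 nuclear complex I subunits, 0 were called lower and 1 was called higher in stressed cells of each label. They were Ndufv1 in KO-labelled at 0.37 (SE 0.081, limma adjusted p = 0.027) and Ndufa9 in WT-labelled libraries at 0.41 (SE 0.091, adjusted p = 0.035). The medians of the 36 were 0.013 and 0.22. Of all genes tested, 2.23% were called higher in stressed KO-labelled and 1.55% in stressed WT-labelled libraries. Of 19 nuclear subunits of complexes III and IV, 0 were called in stressed KO-labelled libraries (median -0.014), where 2 had an unadjusted p under 0.05. In stressed WT-labelled libraries 4 were called higher and 0 lower (median 0.23), Cox6b1, Cox8a, Uqcrc1 and Cox6a1, at 0.22 to 0.36. Among normal cells some subunits of both lists were called higher in KO-labelled libraries. There 12 of the 19 subunits of complexes III and IV were called higher (median 0.36), led by Cox6b1 at 0.43, Uqcr10 at 0.65, Uqcr11 at 0.57 and Cox7c at 0.54. Of the 36 complex I subunits 4 were called higher (median 0.30), Ndufb9, Ndufa6, Ndufb4 and Ndufv2, at 0.31 to 0.56. The background was 1.56% of genes in that comparison, and the alternatives above were run for the 10 members, not for these lists. Among stressed cells 0 nuclear subunits of either list were called between the labels by limma, where 0.145% of genes were. The medians of the 2 lists there were 0.086 and 0.076, and 4 and 3 genes had an unadjusted p under 0.05.

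Outside mtDNA and its copies, the genes whose levels over the 10 libraries were most like the mean of the 10 members were Gm21887 (Pearson r 0.984), the small GTPase Rras (0.977), the interferon-induced membrane protein Ifitm1 (0.970), the nuclear long noncoding RNA Malat1 (0.970) and the imprinted gene Peg3 (0.969). These are descriptions over libraries in 4 groups, with no test. Malat1 averaged 8.80 log2 CPM in KO-labelled stressed, 8.88 in WT-labelled stressed, 9.53 in KO-labelled normal and 9.46 in WT-labelled normal libraries. Peg3 was at the lowest value of the table in all 4 stressed libraries and averaged 1.62 in KO-labelled normal and 1.20 in WT-labelled normal libraries.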

How the data were processed

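RNA of 10 libraries of mouse HSCs was sequenced. The authors deposited 1 table of log2 CPM; the submitters' processing notes name mm10, Bowtie2 and featureCounts without versions, and the table's name adds limma voom. Values are quantile normalized, as the equal values at equal ranks show. Strand use, treatment of reads with several matches and gene filters are not given in the sources used here. Depth was estimated from the spacing of values between 10 and 100 reads.

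The 15143 genes above 0 on the log2 scale in 2 or more libraries were fitted with limma 3.58.1 in R 4.3.3, with 1 mean per group, all 10 libraries and a variance trend, and p-values were adjusted by Benjamini-Hochberg over all of them (threshold 0.05). Nuclear copies were found with blastn 2.17.0 among GENCODE vM21 transcripts (at least 200 bases at 90% identity); 20199 of 20270 genes matched that annotation. All members, the other mtDNA genes, copies with a mean above 0, called genes of companion lists and the 5 genes most like the members were named. Each comparison was refitted under 22 alternatives (21 for the interaction): variance moderation, filters, scalings, a pseudocount of 1 CPM, library weights, summed copies, gene length, a block and each library left out. The members and lists were chosen with earlier results of these data known.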

Additional observations from a re-analysis of the deposited data

Results flagged for a closer look

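The change of mt-Co1 between normal and stressed HSCs differed between KO-labelled and WT-labelled libraries by the interaction term, at -0.66 (SE 0.046, limma adjusted p = 0.00024). All 3 KO-labelled normal libraries held mt-Co1 at rank 3 and 11.85 log2 CPM, so its spread there was 0.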

How the results depend on the processing

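Under the 22 alternatives tried, 9 or 10 members were called lower in stressed than in normal libraries of either label. Between the labels among stressed cells 0 were called. Among normal cells 7 were called; the count was 1 without a variance trend, 4 with only the groups compared, 1 with the length trend removed, and 4 to 8 when each library was left out. The interaction call of mt-Co1 was lost without a variance trend (0 called) and kept when each library was left out. Signs turned only for differences near 0 that were not called: the interaction of mt-Rnr2 was 0.0052 and that of mt-Cytb -0.0011 with library weights; that of mt-Co2 was 0.034 with copies summed; with the length trend removed, it was 0.11 for mt-Rnr2, 0.017 for mt-Nd1 and 0.13 for mt-Co2. Removing that trend also turned mt-Cytb among normal cells to -0.070 and mt-Nd4 among stressed cells to 0.0024. Leaving out each library gave interactions of -0.10 to 0.080 for mt-Rnr2, -0.51 to 0.16 for mt-Co2 and -0.030 to 0.034 for mt-Cytb, and -0.057 to 0.041 for mt-Nd4 among stressed cells. Over all genes tested, the deviations of libraries with the same letter correlated at r between -0.024 and 0.037. Among the members, though, library A had the lowest summed share, and the lowest mt-Rnr1 and mt-Nd1, in each of the 4 groups. A replicate block of these letters left 6 members called among normal cells, with mt-Co3 at an adjusted p of 0.051 by limma, and moved no other count of members. The causes of these shifts were not tested. Where an arm kept 1 library, its spread was assumed to be that of the other groups. The fit on only the groups compared was not run for the interaction, which uses all 4. Quantile values limit what ranks 1 to 7 can show.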
